A study of Mus musculus with 6 samples.

Results

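Type 2 dendritic cells were picked out of single-cell RNA libraries of mouse pancreatic tumours by a gate on their own transcripts. A cell entered with at least 1 UMI of Cd209a, or with at least 1 UMI each of Flt3 and Clec10a. It also needed at least 5 UMIs of H2-Aa, fewer than 3 UMIs of C1qa, C1qb and C1qc together, fewer than 2 of the type 1 dendritic genes Xcr1, Clec9a, Tlr3 and Snx22, fewer than 3 of the migratory genes Ccr7, Ccl22, Fscn1 and Il4i1, and no UMI of Csf3r or Cd79a. The gate took 419 of 54911 kept cells, a kept cell being a barcode with no fewer than 500 UMIs and 300 genes and no more than 20% of its UMIs mitochondrial. A UMI is 1 captured transcript molecule, and CPM below is the usual scaling of a gene's UMIs by all UMIs summed over the cells of a library.

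The tumours came from KPC mice of the genotype KrasLSL.G12D/+; P53LSL.R172H/+; Pdx1-Cre, carried by both groups. Pdx1-Cre acts in the pancreatic epithelial lineage, and dendritic cells are of bone marrow origin. IPI-926, an inhibitor of the Hedgehog transducer Smoothened, was given to 3 mice by oral gavage at 40 mg/kg daily for 2 days, and its cyclodextrin vehicle was given to 3 mice on the same schedule. Tissue was taken 2 hours after the last dose, digested for 42 minutes at 37 C, and each tumour became 1 library of 10x Genomics 3' v3 chemistry. The labels state neither age nor sex, and the study set out to ask which cells respond to Smoothened inhibition, with Hedgehog, WNT and VEGF signalling as its theme.

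Type 2 conventional dendritic cells (cDC2) are Flt3-dependent antigen-presenting cells that take up antigen through C-type lectins and scavenger receptors, load peptides on MHC class II and present them mainly to CD4 T cells. They are set apart from type 1 dendritic cells, which depend on Irf8 and Batf3 and cross-present to CD8 T cells, by Irf4, Sirpa, Cd11b (Itgam) and, in many tissues, by the lectins Cd209a, Clec10a and Mgl2. On maturation dendritic cells of either type switch on Ccr7 and travel to lymph nodes. Plasmacytoid dendritic cells share Flt3 and Tcf4-dependent genes such as Siglech and are known for making type I interferon.

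The members were chosen by measured values, the UMIs of the gate's genes, so the levels of its own genes and the contrast of gated against other cells are a description without a test. Of the gated cells 306 entered by Cd209a alone, 65 by Flt3 and Clec10a alone and 48 by both routes. Just inside the gate lay 17 cells with 5 to 6 UMIs of H2-Aa, against 14 that met every other rule with 3 to 4 UMIs. A C1q sum of 2 UMIs was found in 37 gated cells, against 15 left out with 3. There were 39 gated cells with 1 type 1 gene, against 2 outside with 2 such genes, and 22 gated cells with 2 migratory genes, against 7 outside with 3. A single UMI of Csf3r kept 23 cells out and a single UMI of Cd79a kept out 3.

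The IPI-926 libraries held 24, 70 and 145 gated cells (replicates 1 to 3) and the vehicle libraries 36, 143 and 1. Kept cells numbered 8055, 6613 and 16426 in the IPI-926 libraries, against 7071, 9346 and 7400 in the vehicle libraries, and library totals lay between 100810942 and 174929328 UMIs. Pairs of libraries shared 14 to 59 barcodes, and no pair matched within sampling noise. The median gated cell had 6007.5, 8493 and 5817 UMIs after IPI-926 and 5044, 9311 and 5220 after vehicle, the last from the 1 gated cell of vehicle replicate 3. That cell was left out of every comparison of summed UMIs, which therefore rest on 3 IPI-926 and 2 vehicle libraries.

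Several libraries stood apart. In IPI-926 replicate 1 only 2 UMIs of Cd209a were found in all 8055 kept cells, and all 24 of its gated cells entered by Flt3 and Clec10a, against 12.9% and 11.7% of gated cells in IPI-926 replicates 2 and 3 and 8.33% and 8.39% in vehicle replicates 1 and 2. Vehicle replicate 3 also held only 2 UMIs of Cd209a. The lectin was also read in cells with Mgl2, a gene that C1q macrophages share. Among cells that met every rule but the entry genes and carried Mgl2, Cd209a was detected in 0 of 49 in IPI-926 replicate 1, which allows a share of cells with a UMI of up to 6.12%, in 34 of 49 (69.4%) in IPI-926 replicate 2 and in 55 of 103 (53.4%) in IPI-926 replicate 3, against 15 of 26 (57.7%), 94 of 171 (55.0%) and 1 of 27 (3.70%) in vehicle replicates 1 to 3. Libraries with and without Cd209a thus occurred in both groups, and what sets them apart is not given in the labels. Of all cells that met every rule but the entry genes, 0 of 224 had Flt3 and 12 had Clec10a in vehicle replicate 3. In IPI-926 replicate 1 46 of 296 had Flt3 and 65 had Clec10a. Whether the cells with Mgl2 in these 2 libraries were type 2 dendritic cells was not tested.

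An interferon-induced gene was high in the summed UMIs of gated and of other cells of IPI-926 replicate 3. Isg15, a ubiquitin-like protein induced by interferon, stood at 223, 13.2 and 481 CPM in gated cells after IPI-926, against 12.8 and 16.8 CPM after vehicle, while in all other kept cells of the same libraries it stood at 57.4, 28.2 and 406 CPM after IPI-926, against 19.2, 20.3 and 9.44 CPM in the 3 vehicle libraries. The high library was the same in gated cells and in the rest of the tumour, with IPI-926 replicate 1 next.

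A small number of gated cells carried many UMIs of other tissue compartments. In 24 gated cells the fibroblast or the epithelial marker list made up at least 5000 CPM of the cell's own UMIs, 0, 1 and 9 of them in IPI-926 replicates 1 to 3 and 1, 13 and 0 in vehicle replicates 1 to 3. These cells were deep, and held 0%, 19.0% and 30.2% of the gated UMIs of the IPI-926 libraries, against 2.03% and 13.3% in vehicle replicates 1 and 2. In IPI-926 replicate 2 the whole 19.0% belonged to 1 cell of 144372 UMIs. The summed fibroblast list stood at 42.2, 38.2 and 7605 CPM after IPI-926, against 272 and 2549 CPM after vehicle, and without these cells at 42.2, 42.3 and 666 CPM, against 269 and 331 CPM. The summed epithelial list stood at 265, 2227 and 187 CPM, against 2206 and 2518 CPM, and without them at 265, 446 and 189 CPM, against 2139 and 348 CPM. The cells were chosen for these UMIs, so lower sums without them follow from the choice.

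The label was checked against markers outside the gate. Mgl2 was detected in 51.3% of gated cells, against 0.766% of T cells and 1.10% of epithelial cells, which should lack it. Cd209d was detected in 42.2% of gated cells, against 0.0333% of T cells and 0.205% of epithelial cells. C1q macrophages carried Mgl2 in 22.8% of cells and Cd209d in 0.999%, so Mgl2 is shared with macrophages. Only in IPI-926 replicate 1 was Mgl2 more frequent in macrophages than in gated cells, at 34.1% against 25%. The gate itself set the shares of its own genes, which were 84.5% for Cd209a, 76.1% for Clec10a and 31.5% for Flt3, the receptor for the growth factor that sustains dendritic cells. In T cells and epithelial cells Cd209a was found in 0.10% and 0.131%, Clec10a in 0.40% and 0.483%, and Flt3 in 0.267% and 0.622%. H2-Aa, of which the gate asked for 5 UMIs, was common outside it, in 22.9% of T cells and 24.8% of epithelial cells. By library it was found in 21%, 12.4% and 86.7% of epithelial cells after IPI-926, against 16.6%, 47.8% and 19.9% after vehicle. The part of free RNA in the H2-Aa rule was not tested. Collagen was different. Col1a1 was found in 33.4% of gated cells, against 34.6% of T cells and 34.0% of epithelial cells, a share at the level of background. Any T cell receptor complex gene of the Cd3 family was found in 11 of 419 gated cells, and any gene of the type 2A subset (Tbx21, Clec4a4, Esam, Dtx1) in 13.

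A second kind of cell sat inside the gate. Of 8 genes known from plasmacytoid dendritic cells (Siglech, Ccr9, Ly6d, Klk1, Cox6a2, Cd300c, Smim5, Pacsin1), 266 gated cells carried none, only 1 carried exactly 3, and 55 (13.1%) carried at least 3. The distribution had a gap: among the cells that entered by Cd209a, 236 had none of the genes, 87 had 1, 6 had 2, none had 3, and 25 had 4 to 7 of them. The 55 cells made up 30 of the 65 cells that entered by Flt3 and Clec10a alone, but 20 of the 306 that entered by Cd209a alone. They numbered 9 of 24, 3 of 70 and 33 of 145 gated cells in IPI-926 replicates 1 to 3 and 0 of 36, 10 of 143 and 0 of 1 in vehicle replicates 1 to 3. This count of genes was chosen after the cells had been seen, and below these cells are called by it.

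**Figure D1:**
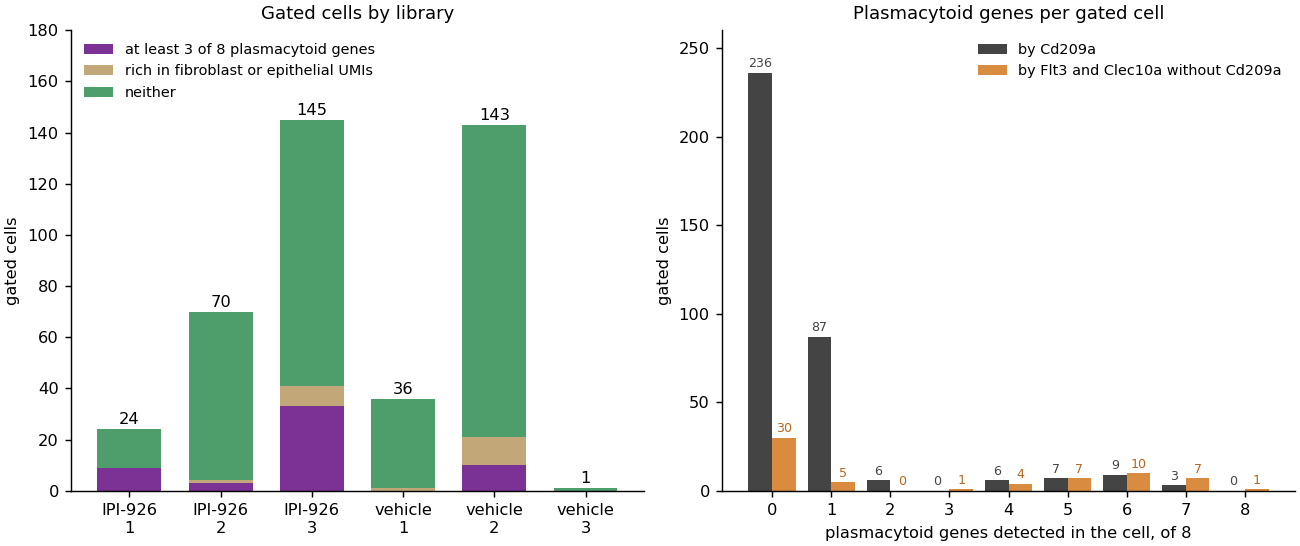
The left panel plots gated cells per library (y axis, cells), split into cells with at least 3 of 8 plasmacytoid genes, other cells rich in fibroblast or epithelial UMIs, and cells that were neither. The right panel plots gated cells (y axis) by how many of the 8 plasmacytoid genes they carried (x axis), for cells that entered by Cd209a and for those that entered by Flt3 and Clec10a without it. Cells with 4 or more of the genes stood apart from the 266 cells with none, and IPI-926 replicates 1 and 3 held 42 of the 55 cells with at least 3.

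The plasmacytoid-gene cells differed from the other gated cells far beyond the genes that chose them. Over all libraries Irf8, the factor shared by plasmacytoid and type 1 dendritic cells, was detected in 98.2% of them, against 31.6% of the other 364 gated cells, and stood at 1669 CPM against 82.7 CPM. Tcf4, the master factor of the plasmacytoid lineage, was detected in 100% against 50.5% (1264 and 166 CPM), and Bst2, an interferon-induced antigen of plasmacytoid cells, in 100% against 56.6% (2548 and 162 CPM). Ly6c2 was detected in 98.2% against 13.7%, at 2035 CPM against 58.3 CPM. Runx2 stood at 417 CPM against 21.8 CPM, Spib at 180 CPM against 5.74 CPM, Bcl11a at 519 CPM against 62.3 CPM and the RNA sensor Tlr7 at 77.0 CPM against 0.862 CPM. Lymphoid transcripts ran with them, with Mzb1 at 217 CPM against 0.287 CPM, Ighm at 514 CPM against 43.4 CPM and Cd8b1 at 371 CPM against 0.862 CPM.

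Several type 2 markers outside the gate were less frequent in them, but not all. Sirpa was detected in 27.3% of the plasmacytoid-gene cells, against 63.7% of the others, Itgam in 9.09% against 50.3% and Mgl2 in 9.09% against 57.7%. Other type 2 markers ran the other way. Klrd1 was detected in 67.3% against 24.5% and Cd7 in 80% against 19.5%, and Clec12a stood at 148 CPM against 19.2 CPM. The lectin Clec4n stood at 8.56 CPM against 253 CPM and the peptide-loading gene H2-DMb2 at 25.7 CPM against 234 CPM over all libraries. Of the 55 cells 33 came from IPI-926 replicate 3, so cytokines were read by library. Il1b stood at 19.6, 46.3 and 82.3 CPM in plasmacytoid-gene cells of IPI-926 replicates 1 to 3 and 105 CPM in those of vehicle replicate 2, against 1324, 1831, 727 and 1797 CPM in the other gated cells of the same libraries. Ccl17 stood at 19.6, 0, 0 and 0 CPM, against 1176, 651, 11 and 1347 CPM, and was thus low on both sides in IPI-926 replicate 3. MHC class II was lower throughout: the summed list stood at 10021, 11194 and 11750 CPM in plasmacytoid-gene cells of IPI-926 replicates 1 to 3 and 6558 CPM in those of vehicle replicate 2, against 53758, 46622, 38291 and 30655 CPM in the other gated cells of the same libraries. A second DC-SIGN family lectin, Cd209d, was more frequent in the plasmacytoid-gene cells, at 90.9% against 34.9%. The shares of the gate's own genes depend on the entry route: Cd209a was found in 45.5% of the plasmacytoid-gene cells, against 90.4%, Clec10a in 78.2% against 75.8% and Flt3 in 74.5% against 25%.

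**Figure D2:**
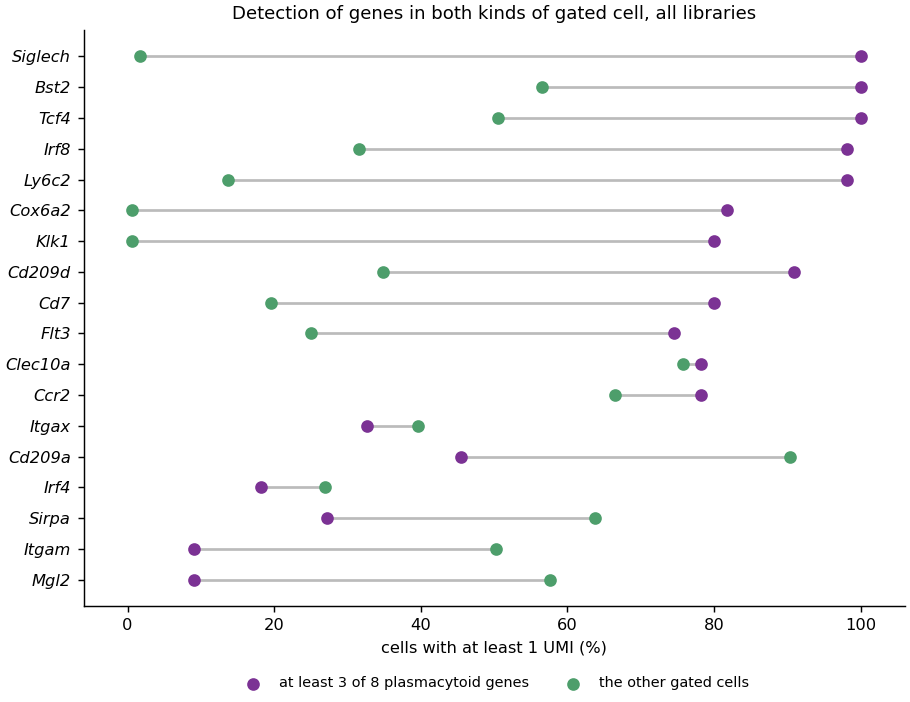
Share of cells with at least 1 UMI of each gene (x axis, percent) in the 55 gated cells with at least 3 of 8 plasmacytoid genes and in the other 364 gated cells, all libraries together. Siglech, Cox6a2 and Klk1 are among the genes that chose the cells; Irf8 and Ly6c2 lay at 98.2% in them, against 31.6% and 13.7% in the other cells, and Mgl2 at 9.09% against 57.7%.

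The gated cells as a whole were led by lectins and by the class II machinery. Averaged over the 5 libraries with at least 20 gated cells, the genes of largest fold over all other kept cells were Cd209a (338 and 1.94 CPM), Clec10a (346 and 7.09 CPM), Cd209d (161 and 1.34 CPM), H2-DMb2 (250 and 9.24 CPM) and Mgl2 (654 and 32.4 CPM), the first value being that of the gated cells in each pair. Next came the aspartic protease gene Napsa (650 and 36.3 CPM), Rnase6 (200 and 9.92 CPM), the chemokine Ccl17 (597 and 39.0 CPM), H2-Oa (108 and 3.24 CPM), the kynurenine hydroxylase gene Kmo (95.5 and 2.84 CPM) and Flt3 (72.4 and 1.65 CPM). Bcl11a, P2ry10, Ifitm1 and Plbd1 completed the 15. Each of the 15 but Cd209a was higher in gated cells in 5 of 5 libraries, and Cd209a in 4 of 5, being 0 in the gated cells of IPI-926 replicate 1.

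Cd209a, a receptor of the DC-SIGN family that lies on chromosome 8 at 3743397 to 3748984 (GRCm38, minus strand), stood at 0, 368 and 401 CPM in gated cells of the IPI-926 libraries, against 480 and 440 CPM in the vehicle libraries. Its neighbour Cd209d, at 3871824 to 3878555 on the same chromosome and not part of the gate, stood at 90.5, 148 and 214 CPM, against 191 and 163 CPM. In the library without Cd209a it thus lay lower, against 0.528 CPM in the other kept cells of that library. There Cd209d was found in 6 of 24 gated cells, but in 0 of the 15 outside the plasmacytoid-gene cells. Mgl2, a galactose-type lectin beside Clec10a on chromosome 11, stood at 253, 1006 and 259 CPM, against 480 and 1273 CPM, a spread within each group wider than the gap between the groups. Clec10a was even, at 374, 339 and 361 CPM, against 306 and 348 CPM, though it is one of the gate's own genes. Clec4n (Dectin-2, a receptor for fungal mannan) averaged 223 ± 37.1 CPM in gated cells, against 423 ± 197 CPM in the C1q macrophages of the same libraries (SD, n = 5), and 223 ± 69.7 CPM, against 7.28 ± 1.19 CPM in type 1 dendritic cells (n = 2).

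The class II genes were higher in gated cells than in macrophages and monocytes, but not than in type 1 dendritic cells. The gates shaped part of this. Those for type 1 and migratory cells also asked for at least 5 UMIs of H2-Aa, and that for Ly6c2 monocytes for fewer than 5. The contrast with monocytes and the likeness to type 1 cells thus partly follow from the gates. The gate for C1q macrophages had no rule on H2-Aa. Cd74, the invariant chain, averaged 15462 ± 2536 CPM in gated cells, against 8409 ± 4304 CPM in C1q macrophages (SD, n = 5 libraries, higher in 5 of 5), and 14662 ± 2075 CPM, against 729 ± 633 CPM in Ly6c2 monocytes (n = 4, higher in 4 of 4). In the 2 libraries with at least 20 type 1 dendritic cells it stood at 13434 ± 2408 CPM in gated cells, against 16005 ± 6801 CPM. H2-Ab1, a class II chain outside the gate, followed the same order, at 6406 ± 1384 CPM against 3017 ± 1385 CPM in macrophages, and at 4932 ± 51.7 CPM against 6603 ± 1179 CPM in type 1 cells.

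Against C1q macrophages the peptide exchange genes H2-DMb2 and H2-Oa were more selective than the class II chain H2-Ab1. Against Ly6c2 monocytes, whose gate limits H2-Aa, the order turned. There the fold of mean CPM plus 5 was 30.8 for H2-DMb2 and 21.4 for H2-Oa, but 49.5 for H2-Ab1. H2-DMb2 averaged 250 ± 74.9 CPM in gated cells, against 19.0 ± 12.1 CPM in C1q macrophages (n = 5) and, in the 2 shared libraries, 191 ± 62.2 CPM, against 108 ± 23 CPM in type 1 cells. H2-Oa, which restrains H2-DM, averaged 108 ± 74.5 CPM, against 3.22 ± 2.94 CPM in macrophages, and Ciita, the class II transactivator, 231 ± 72.5 CPM, against 80.9 ± 44.6 CPM. Against migratory dendritic cells (n = 3), H2-DMb1 averaged 480 ± 158 CPM in gated cells, against 51.7 ± 15.8 CPM, and Ciita 215 ± 55.3 CPM, against 74.8 ± 39.6 CPM, higher in 3 of 3 libraries for both genes. The protease gene Ctss ran the other way for macrophages, at 939 ± 91.9 CPM in gated cells, against 1716 ± 334 CPM, lower in 5 of 5 libraries. Cst3, the cathepsin inhibitor cystatin C, was highest in the other dendritic cells, with 3828 ± 767 CPM in gated cells against 22576 ± 5871 CPM in type 1 cells (n = 2) and 3994 ± 614 CPM against 13536 ± 9151 CPM in migratory cells (n = 3).

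Transcription factors followed the known split of the lineages. Irf4, a cDC2 factor, averaged 48.4 ± 31.8 CPM in gated cells, against 10.5 ± 7.38 CPM in C1q macrophages (higher in 5 of 5 libraries), and 50.8 ± 58.7 CPM, against 8.47 ± 6.24 CPM in type 1 cells (2 of 2). Irf8 and Batf3, the factors of type 1 cells, stood at 264 ± 166 CPM against 1384 ± 222 CPM and at 35.3 ± 4.43 CPM against 227 ± 30.6 CPM, lower in gated cells in 2 of 2 libraries. Zeb2, which opposes Id2 in dendritic development, averaged 258 ± 26.1 CPM in gated cells, against 23.2 ± 5.48 CPM in type 1 cells, and Id2 157 ± 75.0 CPM, against 877 ± 369 CPM. Against macrophages the order of Zeb2 turned, at 237 ± 24.3 CPM in gated cells and 517 ± 117 CPM in macrophages, lower in 5 of 5 libraries. Zbtb46, a factor of conventional dendritic cells, averaged 18.0 ± 12.2 CPM, against 1.24 ± 0.218 CPM in macrophages and 42.1 ± 5.86 CPM in migratory cells (15.1 ± 8.58 CPM in the gated cells of those 3 libraries). Klf4, needed for part of the cDC2, did not single out the gated cells, at 331 ± 60.4 CPM against 516 ± 173 CPM in macrophages.

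The part that plasmacytoid-gene cells took in these levels differed by gene. Irf8 in gated cells stood at 525, 145 and 382 CPM after IPI-926, against 25.5 and 147 CPM after vehicle, in the order of their share, while Irf4 stood at 66.3, 35.6 and 9.30 CPM, against 38.2 and 92.3 CPM.

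**Figure D3:**
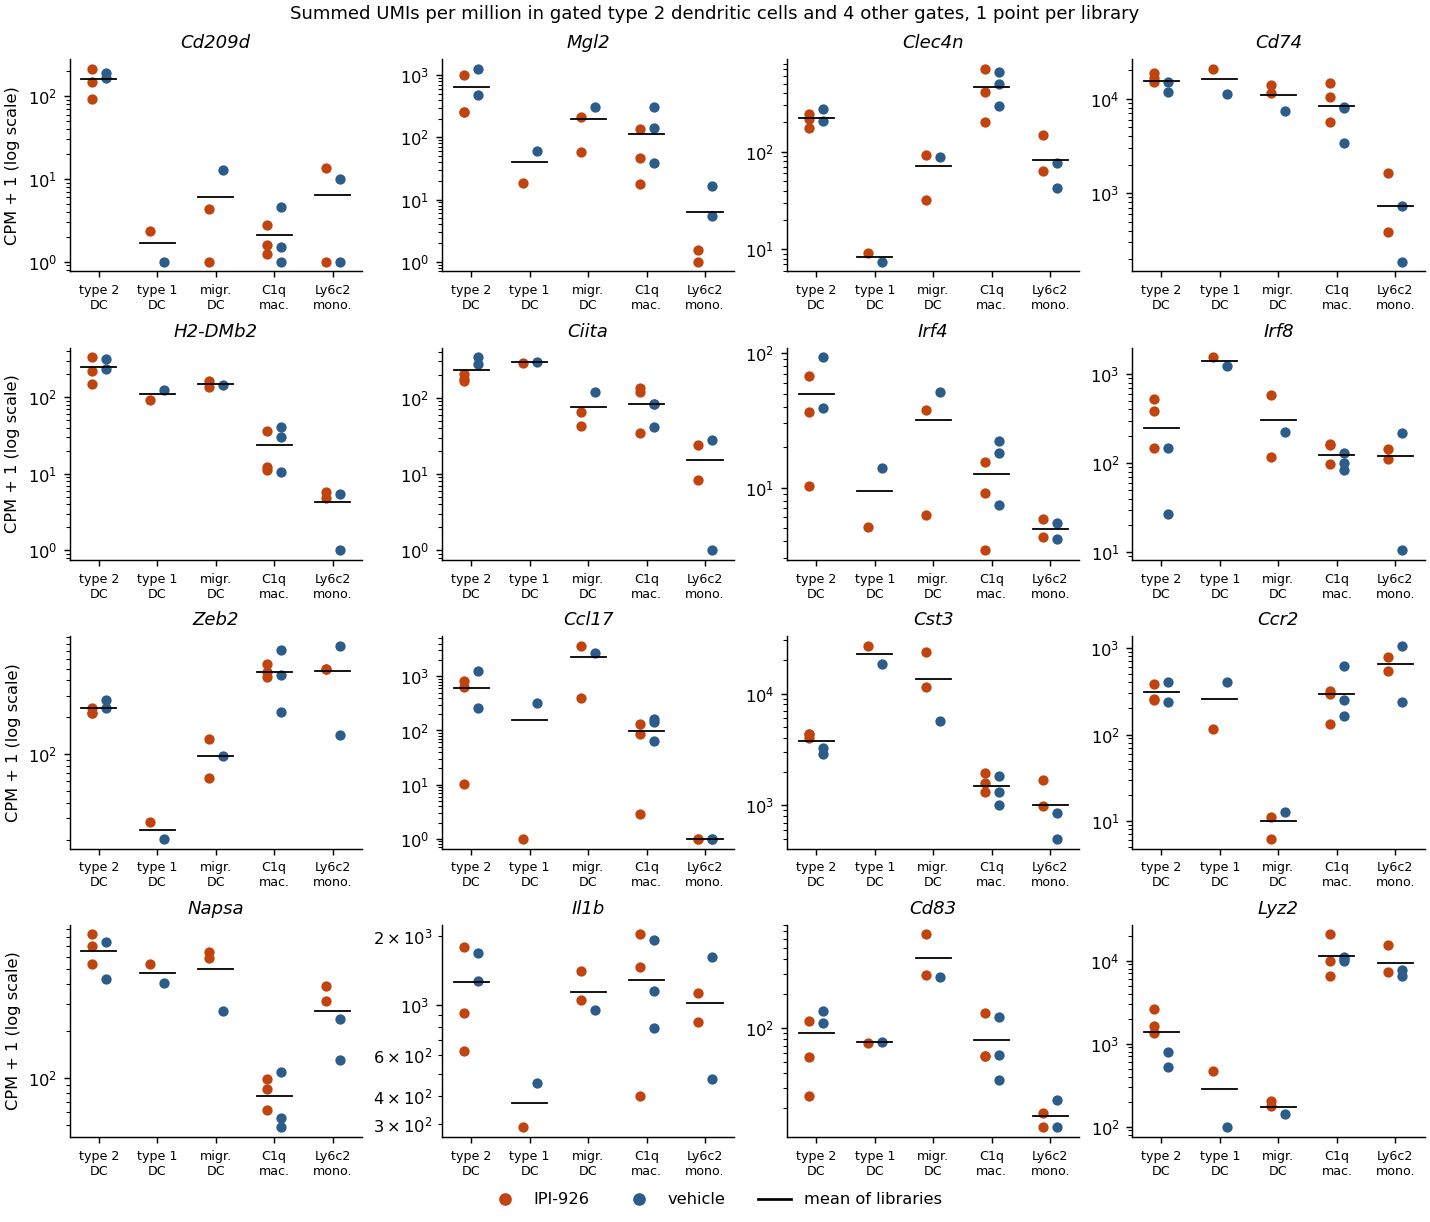
CPM plus 1 on a log axis (y) for 16 genes in gated type 2 dendritic cells and in the gates for type 1 dendritic cells, migratory dendritic cells, C1q macrophages and Ly6c2 monocytes (x), 1 point per library with at least 20 cells of the gate and a line at the mean. Mgl2, Cd209d and H2-DMb2 were highest in the gated cells, Irf8 and Cst3 in type 1 cells, and Lyz2 in macrophages; Ccl17 spanned 9.30 to 1261 CPM among libraries within the gated cells alone.

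Chemokines and cytokines came with wide spread between animals. Ccl17, a chemokine for Ccr4-bearing T cells, stood at 820, 633 and 9.30 CPM in gated cells after IPI-926, against 263 and 1261 CPM after vehicle. IPI-926 replicate 3 was low for it in other cells too, at 1.85 CPM in C1q macrophages, against 61.6 to 162 CPM in the other 5 libraries. Il1b stood at 923, 1780 and 627 CPM, against 1271 and 1688 CPM, and its mean of 1258 ± 492 CPM lay beside 1314 ± 705 CPM in C1q macrophages. The neutrophil chemokine Cxcl2 was lower in gated cells, at 484 ± 413 CPM against 4053 ± 1948 CPM in macrophages, and so was Ccl6, at 377 ± 208 CPM against 3231 ± 2000 CPM, both in 5 of 5 libraries. Ccl5 lay at 74.6 ± 120 CPM, against 2307 ± 2951 CPM in migratory cells (n = 3).

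Ccr2, the receptor by which monocytes and pre-dendritic cells leave the blood, averaged 349 ± 77.8 CPM in gated cells, against 9.06 ± 3.44 CPM in migratory cells (n = 3, higher in 3 of 3), and 287 ± 77.7 CPM, against 654 ± 350 CPM in Ly6c2 monocytes (n = 4). Maturation genes were lower than in migratory cells, with Cd83 at 83.0 ± 50.7 CPM in gated cells against 408 ± 216 CPM in migratory cells, Cd40 at 24.1 ± 10.2 CPM against 129 ± 115 CPM and the checkpoint ligand Cd274 at 32.5 ± 2.74 CPM against 211 ± 122 CPM, lower in 3 of 3 libraries for each. Csf1r, the macrophage growth factor receptor, averaged 94.5 ± 35.1 CPM, against 382 ± 62.8 CPM in C1q macrophages, and Lyz2 1369 ± 809 CPM, against 11612 ± 5330 CPM, both lower in 5 of 5 libraries.

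Among themselves the gated cells differed along several axes. With the plasmacytoid-gene cells and the cells rich in stromal UMIs set aside, 343 cells were left, 15, 66 and 104 of them from IPI-926 replicates 1 to 3 and 35, 122 and 1 from vehicle replicates 1 to 3. Of these 308 carried Cd209a and 194 (56.6%) carried Mgl2, and Mgl2 was found in 58.4% of cells with Cd209a, against 40.0% of those without. The cells without Cd209a had all entered by Flt3 and Clec10a and included all 15 cells of IPI-926 replicate 1. Both sides thus also differ in entry route and in library. Levels below are means over libraries with at least 10 cells on each side of a split, and in every library used the cells on the side named first also had the higher median of UMIs per cell, whose part in these differences was not tested.

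Cells with and without Mgl2 were compared over 4 libraries. Of 22 lectins outside the gate 16 had a higher mean in cells with Mgl2, of 13 class II genes 10 and of 14 monocyte markers 4, against 337 of 628 genes (53.7%) of all the lists. In these libraries Mrc1, the mannose receptor, stood at 262 CPM in cells with Mgl2, against 97.9 CPM in cells without, Clec4n at 342 CPM against 185 CPM, Cd209d at 206 CPM against 112 CPM, H2-DMb2 at 349 CPM against 182 CPM and Itgax (Cd11c) at 112 CPM against 44 CPM, each higher in 4 of 4 libraries. Ccl17 was found in 50% of cells with Mgl2, against 16.1% of cells without, and stood at 831 CPM against 254 CPM, higher in 3 of 4 libraries. Of all 628 genes 60 were higher in cells with Mgl2 in 4 of 4 libraries, 6 of the 22 lectins and 8 of the 13 class II genes among them. Higher in none of the 4 were 94 of the 628 genes, 8 of the 14 monocyte markers among them. Of these markers Vcan stood at 20.5 CPM in cells with Mgl2, against 86.1 CPM in cells without. Ly6c2 stood at 41.5 CPM against 101 CPM and Lyz2 at 1343 CPM against 2320 CPM, all lower in 4 of 4 libraries.

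A second axis ran towards migration. Of the 343 cells 82 (23.9%) carried 1 or 2 of the 4 migratory genes and so fell short of the migratory gate. In the 2 libraries with enough of them, IPI-926 replicate 2 and vehicle replicate 2, some genes outside that gate moved with them. Those named here are examples, and no count over a whole list was made for this split. Ccl17 stood at 2072 CPM in cells with 1 or 2 migratory genes, against 749 CPM in cells with none, Rel at 1170 CPM against 620 CPM, Nr4a3 at 374 CPM against 168 CPM, Cd83 at 200 CPM against 105 CPM, Tbc1d4 at 214 CPM against 83.5 CPM, Fabp5 at 771 CPM against 235 CPM and Il7r at 178 CPM against 39.9 CPM. Ccr2 stood at 248 CPM against 566 CPM, Lyz2 at 576 CPM against 2567 CPM and Fn1 at 82.8 CPM against 638 CPM. Each of these was on the same side in both libraries.

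Division was another axis. Of the 343 cells 88 (25.7%) were cycling, meaning that they carried at least 2 of 25 cell division genes. They numbered 2 of 15, 8 of 66 and 27 of 104 in IPI-926 replicates 1 to 3 (13.3%, 12.1% and 26%), against 10 of 35, 41 of 122 and 0 of 1 in vehicle replicates 1 to 3 (28.6%, 33.6% and 0%). Over 3 libraries cycling cells had less Cd209d, at 105 CPM against 208 CPM, less Ccr2, at 242 CPM against 396 CPM, and less Ly6c2, at 28.3 CPM against 110 CPM, in 3 of 3 libraries each. Cd209a stood at 409 CPM against 611 CPM, also lower in 3 of 3. It is an entry gene of the gate, and the 1 UMI asked for weighs more in a shallower cell. Its difference is thus a description only. Batf3 stood at 59.2 CPM against 38.5 CPM.

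The first comparison between treatments is the number of cells. Gated cells made up 0.298%, 1.06% and 0.883% of kept cells after IPI-926, against 0.509%, 1.53% and 0.0135% after vehicle. The means were 0.746 ± 0.398% and 0.684 ± 0.773% (SD, n = 3 each), and exact permutation of the libraries (two-sided) gave p = 1, where 3 libraries against 3 cannot go below 0.1. The spread lay within the groups: the vehicle libraries held both the highest and the lowest share. Exact binomial 95% intervals, which cover counting error only, ran from 1.29 to 1.80% in vehicle replicate 2 and from 0.000342 to 0.0753% in vehicle replicate 3. Among gated dendritic cells of all 3 kinds the type 2 cells made up 52.2%, 70.0% and 58.2% after IPI-926, against 72.0%, 65.0% and 16.7% after vehicle, the last being 1 of 6 cells, with means of 60.1 ± 9.06% and 51.2 ± 30.1% (exact permutation p = 0.9). The direction of both differences turned when vehicle replicate 3 was left out, to -0.27 and -8.36 percentage points.

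Cycling cells made up 2 of 24, 9 of 70 and 41 of 145 gated cells after IPI-926 (8.33%, 12.9% and 28.3%), against 11 of 36, 46 of 143 and 0 of 1 after vehicle (30.6%, 32.2% and 0%). The means of 16.5 ± 10.5% and 20.9 ± 18.1% did not differ beyond the spread (exact permutation p = 0.8). Without vehicle replicate 3, which has 1 gated cell, the groups did not overlap, with a difference of -14.9 points between means of 16.5 ± 10.5% and 31.4 ± 1.14% (exact permutation p = 0.2, 3 against 2 libraries). Counts of cells with a UMI follow depth, so the gate was also read on cells thinned to 1500 UMIs, which left 2, 44 and 72 gated cells after IPI-926 and 20, 75 and 0 after vehicle. Cycling cells then made up 1.68 ± 1.48% of 3 IPI-926 libraries and 14.8 ± 0.236% of 2 vehicle libraries (exact permutation p = 0.1, the smallest 3 against 2 can give), with IPI-926 replicate 1 resting on 2 cells.

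Cells with Ly6c2, a surface antigen of monocytes and of plasmacytoid cells, made up 9 of 24, 14 of 70 and 54 of 145 gated cells after IPI-926 (37.5%, 20% and 37.2%), against 6 of 36, 21 of 143 and 0 of 1 after vehicle (16.7%, 14.7% and 0%). The groups did not overlap, with means of 31.6 ± 10.0% and 10.5 ± 9.10% (two-sided exact permutation p = 0.1, the smallest the design allows). Ly6c2 was also found outside the gate, in 14.3% of T cells and 1.90% of epithelial cells. By library its share of epithelial cells was 3.63%, 0.194% and 16.2% after IPI-926, against 0.699%, 0.616% and 0.294% after vehicle. In C1q macrophages it was 4.04%, 1.21% and 37.6% after IPI-926, against 1.80%, 2.59% and 0.552% after vehicle. In IPI-926 replicate 3 the share of gated cells thus lay at that of the macrophages. The shares of epithelial cells and of macrophages were highest in IPI-926 replicates 3 and 1. Free RNA and transcripts of the cells' own were not told apart, and the part of free RNA in the difference was not tested. Without the 55 plasmacytoid-gene cells the shares were 0 of 15, 11 of 67 and 22 of 112 after IPI-926, against 6 of 36, 11 of 133 and 0 of 1 after vehicle. The means then stood at 12.0 ± 10.5% and 8.31 ± 8.33%, the groups overlapped, and the exact permutation p was 0.8. The plasmacytoid-gene cells made up 37.5%, 4.29% and 22.8% of gated cells in the IPI-926 libraries and 0%, 6.99% and 0% in the vehicle libraries, a share whose groups overlap.

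**Figure D4:**
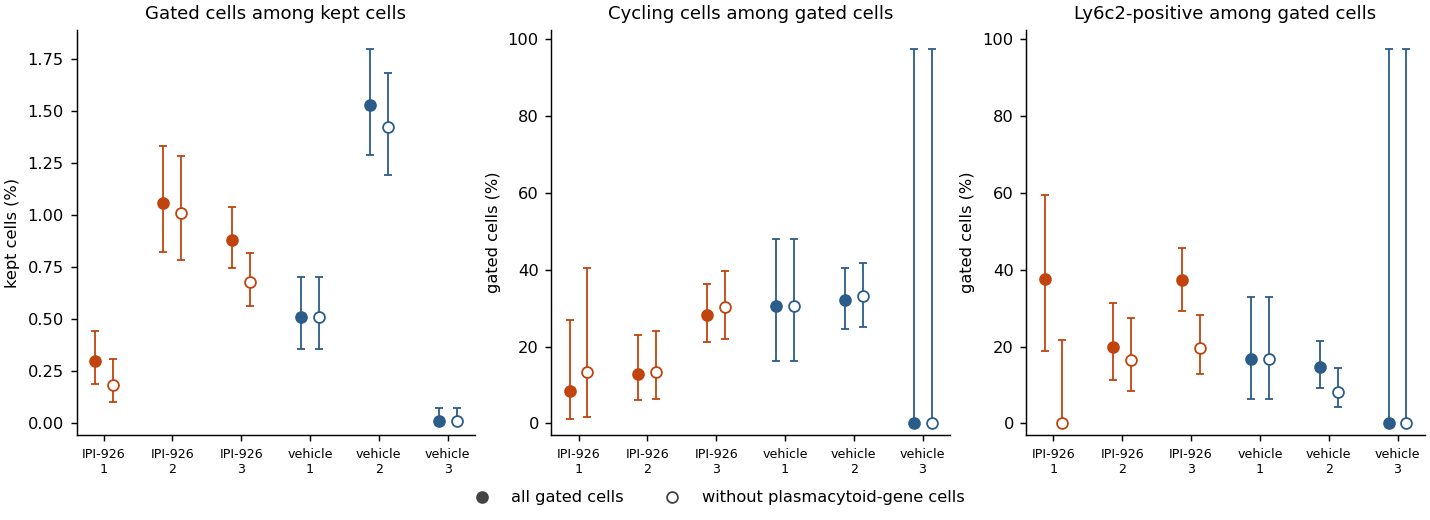
Percent of kept cells that were gated (left), and percent of gated cells that were cycling (middle) or had Ly6c2 (right), by library, with exact binomial 95% intervals. Filled points are all gated cells and open points leave out the plasmacytoid-gene cells; the Ly6c2 share of IPI-926 replicate 1 was 37.5% with them and 0% without, and vehicle replicate 3 rests on 1 cell.

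The second comparison is expression. UMIs were summed over the gated cells of each library, which gave 165803, 758388 and 1182867 UMIs for the IPI-926 libraries and 235301 and 1484856 for the vehicle libraries, and 7386 genes were tested with edgeR's quasi-likelihood test. Levels in what follows are CPM after TMM scaling, and log2 fold changes are IPI-926 over vehicle. A single gene passed an adjusted p of 0.05, which is 0.0135% of those tested, while 216 genes (2.92%) had an unadjusted p below 0.05 and the groups did not overlap for 1376 (18.6%). DESeq2 called 5 genes and limma-voom none. On simulated counts of this design the test recovered 0.559% of genes changed by 1 on the log2 scale, 39.0% of those changed by 2 and 97.8% of those changed by 4.

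The gene called was Gkn1, which encodes gastrokine 1, a secreted protein of stomach surface mucus cells that is also made by gastric-type neoplastic ductal cells. It stood at 0, 5.68 and 3.40 CPM in gated cells after IPI-926, against 115 and 182 CPM after vehicle, which is -5.23 on the log2 scale (SE 0.54) and gave an edgeR adjusted p of 0.0207. The 3 IPI-926 libraries were low and both vehicle libraries high. All other kept cells ran the same way, with unscaled levels of 0.690, 117 and 24.2 CPM after IPI-926, against 835, 771 and 601 CPM after vehicle, and C1q macrophages stood at 0, 25.1 and 3.75 CPM, against 110, 86.2 and 88.9 CPM. The difference of response between gated cells and C1q macrophages was 0.46 (SE 1.60) on the log2 scale. Without the cells rich in fibroblast or epithelial UMIs the change was -3.60 and no longer passed (edgeR adjusted p = 0.58), and it also failed without IPI-926 replicate 1, without vehicle replicate 1, without vehicle replicate 2, with high-scoring doublets left out, over cells with Cd209a alone, and in limma-voom.

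Other genes of small p did not pass in the edgeR fit of all 5 libraries with low counts filtered, and are given as values. On the lower side Mgp, an inhibitor of calcification made by stromal cells, stood at 0, 2.84 and 3.40 CPM after IPI-926, against 26.5 and 99.6 CPM after vehicle (log2 -4.51, SE 0.71, edgeR adjusted p = 0.375). Igfbp3 stood at 0, 0 and 5.95 CPM, against 97.0 and 78.0 CPM (adjusted p = 0.441), and the acute-phase gene Saa3 at 12.5, 19.9 and 10.2 CPM, against 66.2 and 103 CPM (0.50), both from edgeR. DESeq2 called both Mgp (log2 -4.56, DESeq2 adjusted p = 0.0387) and Igfbp3 (log2 -4.89, DESeq2 adjusted p = 0.00837). Igfbp3 also passed in edgeR in 4 alternatives with low counts filtered: without the stromal-rich cells (log2 -6.69, edgeR adjusted p = 0.0024), without IPI-926 replicate 3 (-8.80, 0.0137), with C1q at 0 (-6.66, 0.00764) and without the plasmacytoid-gene cells (-6.88, 0.0473). In each of these 4 the groups did not overlap. With no filter on low counts edgeR called 58 genes, among them Igfbp3 (adjusted p = 6.17e-10), Mgp (6.06e-08) and Saa3 (0.000768).

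On the higher side stood Pltp, a phospholipid transfer protein, at 294, 248 and 236 CPM after IPI-926, against 39.7 and 100 CPM after vehicle (log2 1.80, SE 0.41). The adhesion molecule Cadm1, known from type 1 and plasmacytoid cells, stood at 50.1, 80.9 and 41.6 CPM, against 13.2 and 10.8 CPM, and in plasmacytoid-gene cells at 200 CPM against 18.1 CPM in the other gated cells. The lysozyme gene Lyz2 stood at 1376, 2781 and 1644 CPM, against 534 and 784 CPM, the sodium pump subunit Atp1b1 at 150, 121 and 87.5 CPM, against 44.1 and 21.5 CPM, and Mzb1, which ran with the plasmacytoid genes, at 50.1, 22.7 and 38.2 CPM, against 0 and 5.38 CPM. All 5 had an edgeR adjusted p of 0.999 with low counts filtered. With no such filter they passed in edgeR, with adjusted p from 0.00457 (Lyz2) to 0.0335 (Cadm1).

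**Figure D5:**
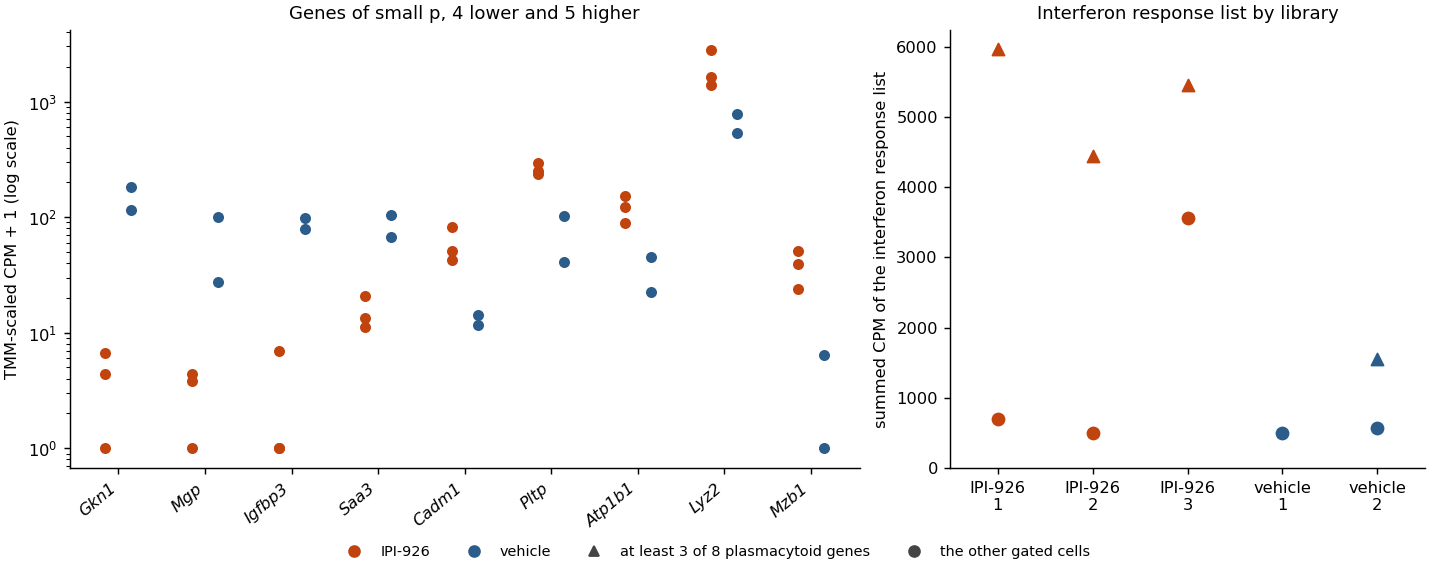
Left, TMM-scaled CPM plus 1 on a log axis (y) of 4 lower and 5 higher genes of small p (x), 1 point per library with at least 20 gated cells. Gkn1 alone passed in the edgeR fit with low counts filtered, at 0 to 5.68 CPM after IPI-926 and 115 to 182 CPM after vehicle. Right, summed CPM of the interferon response list by library (x) in plasmacytoid-gene cells (triangles) and the other gated cells (circles), where IPI-926 replicate 3 reached 3563 CPM in the other gated cells against 501 to 697 CPM elsewhere.

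Lists of genes are described by counts and medians beside those of all genes tested, of which 51.5% had a positive change, with a median log2 fold change of 0.02. No member of these lists passed in the edgeR fit of all 5 libraries with low counts filtered. All 11 tested plasmacytoid markers were positive, with a median of 2.19, led in level by Bst2, at 888, 244 and 785 CPM after IPI-926, against 101 and 133 CPM after vehicle (log2 2.42, SE 0.58, edgeR adjusted p = 0.999). Bst2 passed in DESeq2 (adjusted p = 0.0370) and, without IPI-926 replicate 2, in edgeR (adjusted p = 0.0205). It also passed in edgeR with no filter on low counts (adjusted p = 6.08e-06). In the fit of all 5 libraries 5 of 13 tested type 2 markers outside the gate were positive, with a median of -0.36. Without the plasmacytoid-gene cells 4 plasmacytoid markers were tested, 2 of them positive, with a median of -0.11; IPI-926 replicate 1, with 15 cells left, also dropped out of that fit, which set 2 libraries against 2. Among markers of other cell types no gene passed in the edgeR fit of all 5 libraries with low counts filtered. Monocyte markers were positive in 10 of 14, with a median of 0.56 (0.09 without IPI-926 replicate 3), and their sum stood at 5102, 5405 and 6297 CPM after IPI-926, against 2949 and 3383 CPM after vehicle, with no overlap. Fibroblast markers were positive in 8 of 8, with a median of 0.87, but in 0 of 5 without IPI-926 replicate 3, with a median of -4.86. T and NK cell markers were positive in 3 of 3, with a median of 1.32, and summed to 302, 102 and 319 CPM, against 59.5 and 153 CPM. The part of these cells in the results was not tested.

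All 20 tested members of the type I interferon list, Bst2 among them, had a positive log2 fold change, with a median of 1.83. Isg15 and Ifi44 passed in edgeR without IPI-926 replicate 2 (adjusted p = 0.0160 and 0.0205). The summed list stood at 2316, 613 and 3855 CPM after IPI-926, against 506 and 633 CPM after vehicle, with IPI-926 replicate 2 inside the vehicle range. In the gated cells other than the plasmacytoid-gene cells it stood at 697, 501 and 3563 CPM, against 506 and 570 CPM. Without IPI-926 replicate 3 the list had 7 of 10 tested members positive and a median of 0.63. The interferon gamma list had 11 of 12 positive and a median of 1.92, and 0.51 without that library. Irf1 stood at 125, 62.5 and 198 CPM, against 39.7 and 34.3 CPM (log2 1.83, SE 0.52, edgeR adjusted p = 0.999), and Cxcl10 at 43.8, 52.5 and 132 CPM, against 4.41 and 27.6 CPM (log2 2.00, SE 0.70, edgeR adjusted p = 0.999), neither with overlap between the groups. With no filter on low counts both Irf1 and Cxcl10 passed in edgeR (adjusted p = 0.0321 and 0.0316). MHC class I genes were positive in 17 of 19, with a median of 0.83 and of 0.40 without IPI-926 replicate 3.

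Other functions had medians nearer 0. MHC class II was positive in 10 of 12, with a median of 0.23, and Cd74 stood at 17249, 20096 and 15216 CPM after IPI-926, against 15724 and 11719 CPM after vehicle (log2 0.35, SE 0.26, edgeR adjusted p = 0.999). Costimulation and checkpoint genes were positive in 10 of 21 (median -0.04), chemokines in 6 of 14 (-0.10), growth and cytokine receptors in 11 of 26 (-0.10), and transcription factors of dendritic cells in 16 of 43 (-0.17). NF-kB targets were positive in 4 of 19, with a median of -0.36, cytokines in 3 of 13, with a median of -0.43, and hypoxia genes in 2 of 13, with a median of -0.54. The cytokine median turned to 0.49 without vehicle replicate 2. C-type lectins outside the gate were positive in 10 of 15, with a median of 0.67. Ccl17 had a log2 fold change of -0.61 (SE 1.84) and Mgl2 one of -0.72 (SE 0.82), each smaller than its error. Both turned positive without vehicle replicate 2, and Ccl17 stood at 0.00 without IPI-926 replicate 3.

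Division genes rested on few cells. Of 21 tested, 14 were positive with a median of 0.44. Without the 24 cells rich in fibroblast or epithelial UMIs 0 of 17 were positive and the median was -1.32. A further fit took the cells that still passed the gate when thinned to 1500 UMIs, but summed their UMIs at full depth. There 0 of 14 were positive with a median of -2.82, and edgeR called Mki67 and Top2a (adjusted p = 0.0106 and 0.0321). That fit thus did not even out depth. It also lacked IPI-926 replicate 1, with 2 cells, and set 2 libraries against 2. Mki67, a marker of dividing cells, stood at 87.6, 68.2 and 29.7 CPM after IPI-926, against 119 and 129 CPM after vehicle in all gated cells (log2 -1.10, SE 0.45, edgeR adjusted p = 0.999), and was negative in every alternative run.

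The response of gated cells was then set against that of C1q macrophages, within each library, with limma. Of 7363 genes tested none passed (0%), while 163 had an unadjusted p below 0.05, and edgeR with the library as a block also called none, with 101 unadjusted. The simulated recovery was 0% for differences of 1 and of 2 and 55.0% for differences of 4 on the log2 scale. The same test against type 1 dendritic cells could not be fitted, since only IPI-926 replicate 3 and vehicle replicate 2 held at least 20 of them.

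Readouts of the inhibited pathway were nearly absent from these cells. The Hedgehog targets Gli1 and Hhip and the WNT antagonist gene Wif1 had 1 UMI each in the summed gated cells of the 5 libraries, all in vehicle replicate 2, Gli2 had 1, Gli3 11, the WNT target Axin2 5, Lef1 1, and Smo, which encodes the drug's target, 16 UMIs, with 0, 5 and 5 after IPI-926 and 1 and 5 after vehicle. Ptch1, the Hedgehog receptor and itself a target, had 3, 1 and 11 UMIs after IPI-926, against 4 and 16 after vehicle (log2 -0.74, SE 0.99, edgeR adjusted p = 0.999). Vegfa had 6, 12 and 58 UMIs, against 7 and 99 (log2 -0.58, SE 0.54, edgeR adjusted p = 0.999), and its sign turned without vehicle replicate 2 and with high-scoring doublets left out. Ptch1 and Vegfa were tested and did not pass. The other genes named here held too few UMIs to be tested, so a change of them was not detectable at this depth.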

How the data were processed

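The 6 single-cell libraries were read from the deposited tables of raw UMI counts per gene and barcode, as made by the authors with Cell Ranger. Per the file headers the version was 6.1.2; Cell Ranger 2.1.1 and mm10 are listed in the submitters' processing notes. The annotation is not given in the sources used here. Positions came from GENCODE on GRCm38, matched for 32158 of 32285 gene IDs.

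Barcodes were filtered and gated as the report states, in Python 3.11.15 with scanpy 1.11.5. Doublets were scored with Scrublet; the top 0.8% of scores per 1000 barcodes, 28 of 419 gated cells, were left out in an alternative, since its automatic threshold marked 0 to 2 barcodes in 5 libraries. UMIs were summed per library over gated cells where at least 20 were present, and tested with edgeR 4.0.16 (quasi-likelihood, TMM, filterByExpr, robust, Benjamini-Hochberg). The difference of response from C1q macrophages was tested with limma 3.58.1 on differences within libraries. DESeq2 1.42.0, limma-voom, other filters and each library left out were alternatives, and the tests were tried on simulated counts. Shares were compared by exact permutation over libraries, with exact binomial intervals.

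The genes named between treatments were those that passed or, being fewer than 10, the 5 rising and 5 falling of smallest p at a mean of at least 10 CPM, with the leading members of each list. Some genes that this rule names are not reported here. The members and lists were chosen with earlier results of these data known, and the counts that define plasmacytoid-gene cells and cells rich in fibroblast or epithelial UMIs were set after seeing the data. Each library carries its own animal code in the labels, so p-values measure the spread between tumours. In sums, fewer cells of a kind and less RNA per cell cannot be told apart.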

Additional observations from a re-analysis of the deposited data

How the results depend on the processing

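The count of 1 called gene became 5 in DESeq2, 0 in limma-voom and 58 with no filter on low counts. It became 0 with high-scoring doublets left out and 0 over cells with Cd209a alone. It was 2 each with C1q at 0, over cells gated after thinning to 1500 UMIs, with equal cells per library and without plasmacytoid-gene cells. Thinning chose the cells of that fit only, and their UMIs were summed at full depth. The fits over cells with Cd209a alone, cells gated after thinning and cells without plasmacytoid genes also lost IPI-926 replicate 1 (0, 2 and 15 cells) and set 2 libraries against 2. Leaving out 1 library gave 0 to 7 calls: 0 without IPI-926 replicate 1, vehicle replicate 1 or vehicle replicate 2, 7 without IPI-926 replicate 2 and 2 without IPI-926 replicate 3. The difference of response from C1q macrophages gave 0 calls in all 10 alternatives, and 0 to 0 with a library left out.

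The share of kept cells differed by 0.0622 percentage points, and by -0.0939 without IPI-926 replicate 2, -0.00600 without IPI-926 replicate 3, -0.0254 without vehicle replicate 1, -0.273 without vehicle replicate 3, -0.0601 over cells with Cd209a alone and -0.0215 without plasmacytoid-gene cells (with a library left out, -0.273 to 0.485). The share of gated dendritic cells differed by 8.91 points, and by -8.36 without vehicle replicate 3 and -9.22 over cells with Cd209a alone (-8.36 to 19.3). The cycling share differed by -4.42 points, and by 0.405 without vehicle replicate 1, 1.21 without vehicle replicate 2 and 1.96 over cells with Cd209a alone (-14.9 to 1.21). The Ly6c2 share differed by 21.1 points, and by 3.71 without plasmacytoid-gene cells and 13.9 over cells with Cd209a alone, where IPI-926 replicate 1 has none (15.9 to 26.9). On the log2 scale Vegfa turned to 0.16 without vehicle replicate 2 and 0.0874 without high-scoring doublets, Ccl17 to 0.00267 without IPI-926 replicate 3 and 0.89 without vehicle replicate 2, and Mgl2 to 0.11 without vehicle replicate 2. With a library left out the ranges were -1.16 to 0.16 for Vegfa, -1.33 to 0.89 for Ccl17 and -1.76 to 0.11 for Mgl2. The causes were not tested.

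No paired analysis was possible because the labels give each animal its own code; the replicate numbers used here follow accession order and only name libraries. The depth of 24 to 145 gated cells per library, 1 in vehicle replicate 3, limits all of these.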
